A study of Mus musculus with 10 samples.

Results

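The genes described here are 8 markers of bile duct epithelium and of the ductular reaction in mouse liver, Krt19, Krt7, Krt23, Epcam, Sox9, Cftr, Prom1 and Cd24a. They were chosen by name, and were looked up by symbol in the deposited gene table. All 8 were found among 55291 genes, and all 8 passed the filter on low counts that left 17015 genes for testing. The study asked how loss of the deubiquitinase Bap1 in hepatocytes changes the liver and its response to acute injury, and mRNA was sequenced from unsorted liver tissue of 10 mice. All groups consisted of female Cas9 Lox-Stop-Lox mice of 16 to 20 weeks that received an AAV8-U6-sgRNA-TBG-Cre virus. The TBG promoter drives Cre in hepatocytes, so that Cas9 and the edit are directed to hepatocytes and not to duct cells. The virus carried a non-targeting guide in the NTC groups and a guide against Bap1 in the sgBap1 groups. Livers were taken 48 hours after an injection of 10 µL per g into the peritoneum, given on day 10. It held olive oil alone (Veh) or 1 part of CCl4 with 9 parts of olive oil. CCl4 is a solvent that hepatocyte enzymes convert to a toxic radical. Each vehicle group had 2 livers and each CCl4 group had 3. Summed estimated counts were 46743879 and 42422361 in the NTC-Veh livers and 44437424 and 33047904 in the sgBap1-Veh livers. They were 41496212, 47302355 and 33322273 with CCl4 in NTC and 52199904, 47335624 and 43452325 with CCl4 in sgBap1 livers.

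Bile ducts are lined by cholangiocytes, epithelial cells that carry keratin filaments, adhesion molecules and ion channels which hepatocytes largely lack. After many kinds of liver injury, duct-like cells multiply and spread from the portal tracts, and this is called the ductular reaction. Some markers used to see it are not restricted to ducts, since injured hepatocytes can switch on Sox9 and leukocytes carry Cd24a.

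Levels are given as CPM, the counts per 1000000 counts of the library after TMM normalization. Bap1, the targeted gene, was measured at 34.8 and 34.8 CPM in NTC-Veh livers and at 17.5 and 19.5 CPM in sgBap1-Veh livers. It was at 30.1, 31.5 and 29.5 CPM in NTC-CCl4 livers and at 17, 21.8 and 19.1 CPM in sgBap1-CCl4 livers. Every sgBap1 liver was below every NTC liver. The log2 fold change was -0.91 ± 0.12 (SE) with vehicle (edgeR adjusted p = 0.0208) and -0.65 ± 0.10 with CCl4 (edgeR adjusted p = 0.0295). With each liver left out in turn these values were -0.99 to -0.84 and -0.75 to -0.57, but the calls were kept in only 6 and 4 of 10 fits. The highest edgeR adjusted p was 0.12 with vehicle, without sgBap1-Veh replicate 1, and 0.147 with CCl4, without NTC-CCl4 replicate 1. Albumin (Alb), a hepatocyte marker, was at 55000 to 116000 CPM in all libraries. The duct genes were rare beside it: the 8 members together summed to 9.61 to 58.9 CPM per liver, and Muc5b, a duct mucin, had 0 counts in all 10 livers.

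In NTC livers, 3 of the 8 members were called higher with CCl4 and 0 lower, at an edgeR adjusted p under 0.05. Of all genes tested, 53.9% were called in this comparison, 27.4% higher and 26.6% lower. In sgBap1 livers, 3 members were called higher and 1 lower, beside 57% of all genes, 29% higher and 28% lower. The members called higher were the transcription factor Sox9, the membrane glycoprotein Prom1 and the surface protein Cd24a in both genotypes, and the member called lower was the keratin Krt23. The structural duct markers Krt19, Krt7 and Epcam were not called in either genotype. The median log2 fold change of the 8 members was 0.91 in NTC and 0.73 in sgBap1 livers, and without Cftr, which had few counts, 0.76 and 0.87. Over all genes tested the medians were 0.03 and 0.04. In whole tissue, more or fewer cells of a type and more or less RNA per cell cannot be told apart.

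**Figure D1:**
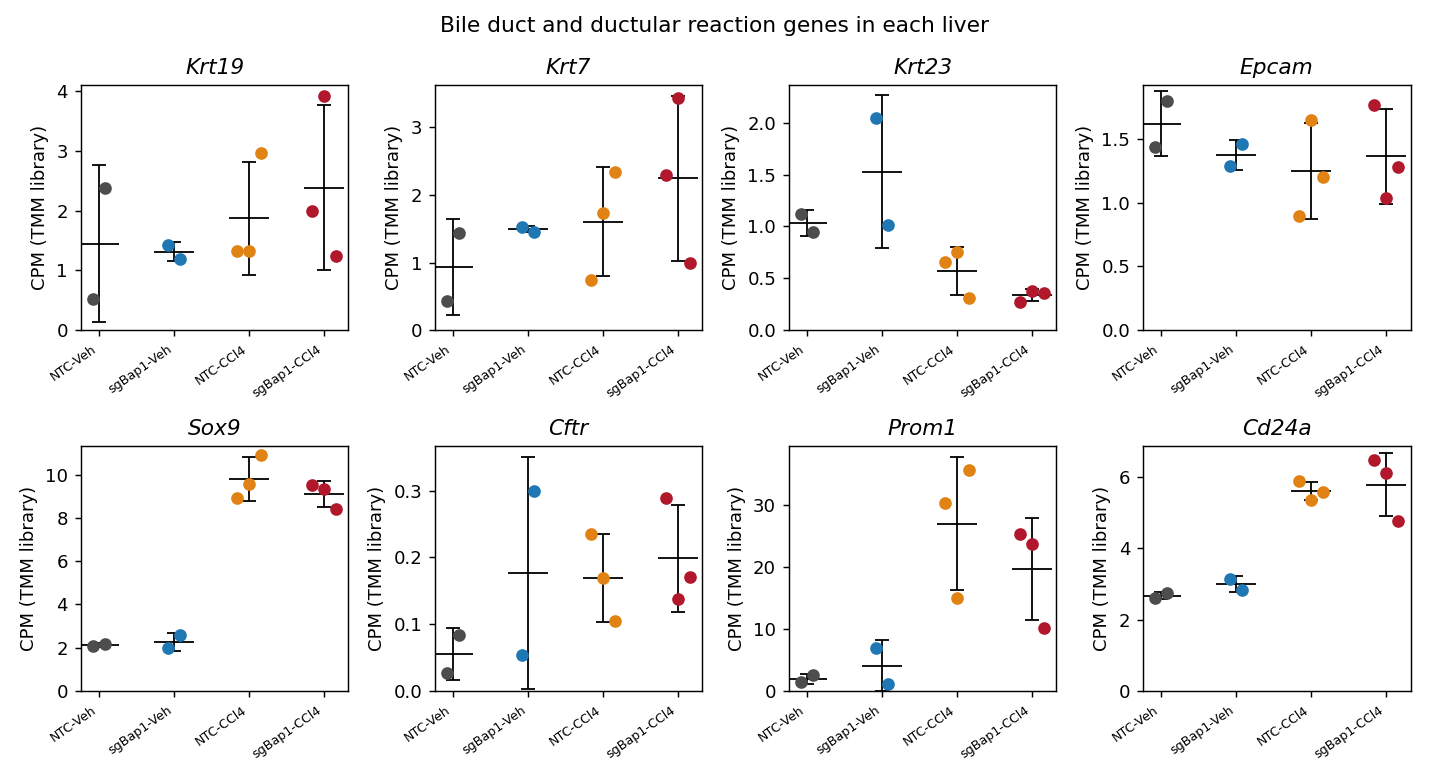
CPM of each member in each liver, 1 panel per gene and 1 point per liver, with the group mean and SD as black lines; each axis starts at 0 and the lower SD bar of Prom1 in sgBap1-Veh livers runs below it. All CCl4 livers lie above all vehicle livers for Sox9, Prom1 and Cd24a, and CCl4 and vehicle livers overlap for Krt19, Krt7 and Epcam.

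Sox9, a transcription factor of bile duct development, was at 2.07 and 2.19 CPM in NTC-Veh livers and at 8.93, 9.58 and 10.9 CPM in NTC-CCl4 livers. It was at 1.99 and 2.58 CPM in sgBap1-Veh livers and at 9.55, 9.36 and 8.44 CPM in sgBap1-CCl4 livers. All 6 CCl4 livers were above all 4 vehicle livers, with no overlap. With CCl4 the log2 fold change was 2.20 ± 0.16 in NTC livers (edgeR adjusted p = 3.89e-06) and 2.01 ± 0.16 in sgBap1 livers (edgeR adjusted p = 5.9e-06). The genotypes differed in this change by -0.19 on the log2 scale, with a 95% interval of -0.70 to 0.31 (edgeR adjusted p for the interaction 0.837).

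Prom1, which encodes the glycoprotein CD133 of cell membrane protrusions and is used as a marker of hepatic progenitor cells, had the highest fold change of the members in NTC livers. It was at 1.39 and 2.55 CPM in NTC-Veh livers and at 30.3, 14.9 and 35.5 CPM in NTC-CCl4 livers. It was at 6.97 and 1.16 CPM in sgBap1-Veh livers and at 25.2, 23.6 and 10.2 CPM in sgBap1-CCl4 livers. The CCl4 livers of each genotype lay above its vehicle livers, but Prom1 varied more between livers of a group than Sox9, and sgBap1-Veh replicate 1 was well above the other vehicle livers. The log2 fold change was 3.77 ± 0.83 in NTC livers (edgeR adjusted p = 0.00595). Each liver left out in turn gave 3.40 to 4.27, with edgeR adjusted p of 0.00212 to 0.0452, and the alternatives that left out no liver gave adjusted p of 1.09e-05 to 0.0207. In sgBap1 livers it was 2.23 ± 0.75 (edgeR adjusted p = 0.0355), and this call rested on single livers. Leaving out sgBap1-Veh replicate 2 gave 1.5, below the value of Sox9, with an edgeR adjusted p of 0.13, and leaving out sgBap1-Veh replicate 1 gave 4.09 with 0.011. The call was also lost without NTC-CCl4 replicate 1, sgBap1-CCl4 replicate 1 or sgBap1-CCl4 replicate 2, with edgeR adjusted p of 0.051, 0.0734 and 0.0991. The log2 fold change in these fits stayed near that of all livers, at 2.23, 2.01 and 2.07. Over the alternatives that left out no liver, the edgeR or DESeq2 adjusted p was 0.0117 to 0.0884. The interaction was -1.54 on the log2 scale, with a 95% interval of -3.99 to 0.90 (edgeR adjusted p = 0.69). With 1 liver left out it was -2.27 to 0.32, above 0 only without sgBap1-Veh replicate 1 (edgeR adjusted p of 0.441 to 0.964).

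The reference table of RefSeq promoters (GRCm38.p6) holds 250 bases before and 50 bases after a gene's start for 5 of the 8 members, Prom1 with 2 entries, Cftr, Krt23, Krt7 and Epcam, and none for Krt19, Sox9 and Cd24a. The promoters of Prom1, the member with the highest fold change in NTC livers, and of Krt23, the member called lower, are shown 5′ to 3′ on the strand of the gene, with matches to the motifs searched in capitals.

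Prom1, first start, chr5:44101687-44101986, - strand: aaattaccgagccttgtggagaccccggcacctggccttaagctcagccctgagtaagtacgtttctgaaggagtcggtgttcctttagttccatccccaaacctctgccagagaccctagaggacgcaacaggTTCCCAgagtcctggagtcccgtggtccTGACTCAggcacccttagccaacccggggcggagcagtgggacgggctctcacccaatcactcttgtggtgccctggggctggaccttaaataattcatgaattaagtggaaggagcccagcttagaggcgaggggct

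Prom1, second start, chr5:44094719-44095018, - strand: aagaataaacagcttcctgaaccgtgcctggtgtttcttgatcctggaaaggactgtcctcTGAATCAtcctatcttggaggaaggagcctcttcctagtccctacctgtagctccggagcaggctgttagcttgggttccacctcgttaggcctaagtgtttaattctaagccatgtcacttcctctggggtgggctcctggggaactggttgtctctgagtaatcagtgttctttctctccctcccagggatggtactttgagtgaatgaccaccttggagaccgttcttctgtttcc

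Krt23, chr11:99493071-99493370, - strand: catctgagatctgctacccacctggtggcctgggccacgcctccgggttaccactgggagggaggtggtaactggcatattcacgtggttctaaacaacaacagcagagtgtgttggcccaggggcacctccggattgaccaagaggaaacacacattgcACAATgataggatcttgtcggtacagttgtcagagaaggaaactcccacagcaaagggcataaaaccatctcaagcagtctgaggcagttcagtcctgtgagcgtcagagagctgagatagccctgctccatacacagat

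The motifs described were TGGGAA (RBPJ), GGAATG (TEAD), TGANTCA (AP-1), ACAAT (SOX) and GGGNNTTCC (NF-kB), each searched on both strands. Both Prom1 promoters hold an AP-1 match, which begins 88 bases before the first start and 189 bases before the second. The promoter of the first start also holds an RBPJ match on the opposite strand, 116 bases before the start. The Krt23 promoter holds a SOX match, 90 bases before the start, and the Krt7 promoter an NF-kB match on the opposite strand, 97 bases before the start. The matches do not overlap each other. The promoters of Epcam and Cftr hold none of these motifs. Of the 32851 promoters in the table, 7.81% hold the AP-1 letters, 25.6% RBPJ, 31% SOX, 5.82% NF-kB and 14.7% TEAD. A match is a description of the sequence, and binding was not measured.

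Cd24a, which encodes a small surface glycoprotein of duct cells, immature B cells, neutrophils and erythroid precursors, was at 2.61 and 2.74 CPM in NTC-Veh livers and at 5.88, 5.37 and 5.57 CPM in NTC-CCl4 livers. It was at 3.15 and 2.84 CPM in sgBap1-Veh livers and at 6.47, 6.11 and 4.78 CPM in sgBap1-CCl4 livers. All 6 CCl4 livers were above all 4 vehicle livers. The log2 fold change was 1.07 ± 0.17 in NTC livers (edgeR adjusted p = 0.000419) and 0.95 ± 0.17 in sgBap1 livers (edgeR adjusted p = 0.000806), and the interaction was -0.12 with a 95% interval of -0.64 to 0.41 (edgeR adjusted p = 0.914).

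Leukocyte markers were also measured. Ptprc, the leukocyte antigen CD45, was at 9.98 to 26.2 CPM in vehicle livers and at 42.7 to 57.7 CPM in CCl4 livers. Its log2 fold change was 2.04 in NTC livers (edgeR adjusted p = 7.28e-06) and 0.87 in sgBap1 livers (edgeR adjusted p = 0.00103), with an interaction of -1.17 that edgeR did not call (adjusted p = 0.0835) and DESeq2 did. It was also higher in sgBap1 than in NTC livers with vehicle (1.05, edgeR adjusted p = 0.0418), a call kept in 3 of 10 fits with a liver left out (edgeR adjusted p of 0.0323 to 0.171, the highest at 0.79 without NTC-Veh replicate 2) and lost with the replicate block. The 5 neutrophil markers summed to 6.15, 3.08, 6.22 and 4.53 CPM in the vehicle livers, NTC first. They summed to 16.1, 19.7 and 21.7 CPM in NTC-CCl4 and to 22.1, 24.7 and 15.4 CPM in sgBap1-CCl4 livers, with S100a9 the most abundant in each liver and Ly6g at 0 to 9 counts. All 4 neutrophil markers tested were called higher with CCl4 in both genotypes. Of all genes tested, 27.4% were called higher in NTC and 29% in sgBap1 livers. Of 3 B cell markers, 2 were called higher with CCl4 in NTC livers and 0 in sgBap1 livers by edgeR and by DESeq2, and they summed to 2.6 to 6.92 CPM in vehicle and 5.43 to 8.33 CPM in CCl4 livers, with Cd79b the most abundant over the 10 livers together and none at 0. Of 5 erythroid markers tested, 4 were called higher with CCl4 in NTC livers and 0 in sgBap1 livers by edgeR and by DESeq2. For both lists, 0 markers had an unadjusted edgeR p under 0.05 in sgBap1 livers. In the interaction both tools called 0 of them, and 3 B cell and 0 erythroid markers had an unadjusted edgeR p under 0.05. For sgBap1 against NTC both tools also called 0 of them. With vehicle 1 B cell and 0 erythroid markers had an unadjusted edgeR p under 0.05, and with CCl4 1 and 4. Among the 17015 genes tested, 10496 had such a p with CCl4 in sgBap1 livers and 1764 in the interaction. For sgBap1 against NTC it was 2100 with vehicle and 2376 with CCl4. The 6 erythroid markers summed to 2470 CPM in NTC-CCl4 replicate 2 and to 581 to 1660 CPM in the other livers, with Hbb-bs the most abundant in each liver and none at 0. Cd24a in NTC-CCl4 replicate 2, at 5.37 CPM, was the lowest of its group. The part of leukocyte and erythroid RNA in the Cd24a result was not tested.

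Krt19, a type I keratin of duct cells, was at 0.517 and 2.38 CPM in NTC-Veh livers and at 1.43 and 1.2 CPM in sgBap1-Veh livers. It was at 1.32, 1.33 and 2.97 CPM in NTC-CCl4 livers and at 1.99, 3.92 and 1.25 CPM in sgBap1-CCl4 livers. The groups overlap, with NTC-Veh replicate 1 lowest and sgBap1-CCl4 replicate 2 highest. The log2 fold change with CCl4 was 0.34 in NTC livers, with a 95% interval of -1.20 to 1.89 (edgeR adjusted p = 0.695), and 0.87 in sgBap1 livers, with an interval of -0.69 to 2.42 (edgeR adjusted p = 0.309). Both intervals are wide and include 0. The value in NTC livers turned with single livers, from -0.38 without NTC-Veh replicate 1 to 1.82 without NTC-Veh replicate 2, and was not called in any of these fits (edgeR adjusted p of 0.138 to 0.902).

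Krt7, the type II keratin that pairs with type I keratins in duct cells, was at 0.436 and 1.44 CPM in NTC-Veh livers and at 1.53 and 1.46 CPM in sgBap1-Veh livers. It was at 0.746, 1.73 and 2.34 CPM in NTC-CCl4 livers and at 2.3, 3.44 and 0.999 CPM in sgBap1-CCl4 livers. NTC-Veh replicate 1 was again lowest and sgBap1-CCl4 replicate 2 highest, and the CCl4 groups overlap with the vehicle groups. For Krt7 the log2 fold change with CCl4 was 0.76 in NTC livers, with a 95% interval of -0.77 to 2.29 (edgeR adjusted p = 0.374), and 0.60 in sgBap1 livers, with an interval of -0.80 to 1.99 (edgeR adjusted p = 0.433). With 1 liver left out the value in NTC livers was 0.14 to 1.86, the lowest without NTC-Veh replicate 1, and was not called (edgeR adjusted p of 0.162 to 0.907).

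Mesothelial cells, which cover the liver surface, also carry Krt19 and Krt7, and their 7 markers varied between livers. The markers summed to 1.23 and 21.4 CPM in NTC-Veh livers, 7.83 and 16.3 CPM in sgBap1-Veh livers, 5.16, 8 and 18.6 CPM in NTC-CCl4 livers and 11.3, 23.5 and 8.76 CPM in sgBap1-CCl4 livers. Averaged over the 10 livers, the most abundant was Msln, at 0.136 to 4.96 CPM, and only Muc16 was at 0, in NTC-Veh replicate 1. The liver with the lowest mesothelial sum, NTC-Veh replicate 1, had the lowest Krt19 and Krt7, and the liver with the highest sum, sgBap1-CCl4 replicate 2, had the highest. In the NTC-Veh, NTC-CCl4 and sgBap1-CCl4 groups the livers had the same order in the mesothelial sum, Krt19 and Krt7. Krt19 was nearly equal, at 1.32 and 1.33 CPM, in NTC-CCl4 replicates 1 and 2. In the sgBap1-Veh group the liver with more mesothelial RNA had the lower Krt19 (1.2 against 1.43 CPM) and Krt7 (1.46 against 1.53 CPM). Of the 7 mesothelial markers tested, 0 were called with edgeR in any comparison, and 0 had an unadjusted p under 0.05. DESeq2 called 1, Wt1, with CCl4 in sgBap1 livers. With CCl4, edgeR called 53.9% of all genes tested in NTC and 57% in sgBap1 livers. An unadjusted edgeR p under 0.05 was found for 10061 and 10496 of the 17015 genes. The SE of the markers' log2 fold changes with CCl4 was 0.81 to 1.16 in NTC and 0.8 to 1.27 in sgBap1 livers. With SEs this large, 0 calls do not show that mesothelial RNA was equal between groups. The part of mesothelial RNA in the keratin values was not tested.

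**Figure D2:**
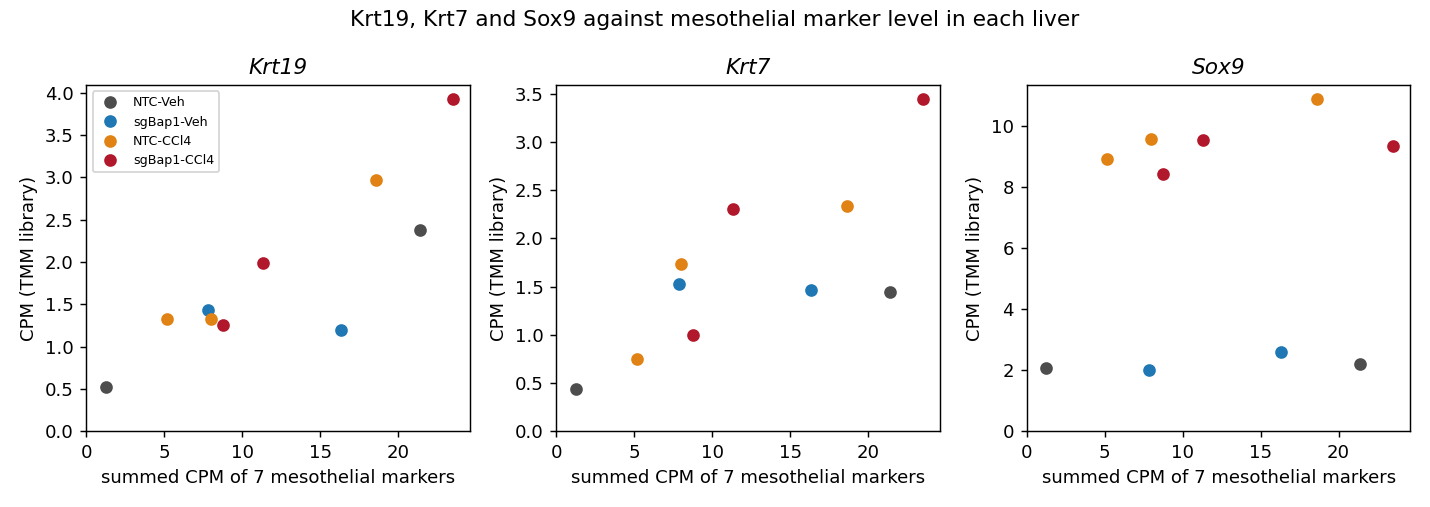
CPM of Krt19, Krt7 and Sox9 (vertical axes) against the summed CPM of 7 mesothelial markers (horizontal axes), 1 point per liver, coloured by group. NTC-Veh replicate 1, at 1.23 CPM of mesothelial markers, is lowest in Krt19 and Krt7, and sgBap1-CCl4 replicate 2, at 23.5 CPM, is highest; the CCl4 livers lie above the vehicle livers in Sox9.

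The liver sgBap1-CCl4 replicate 2 also held adipocyte RNA. Its 5 adipocyte markers summed to 233 CPM, with Cfd at 144 CPM the most abundant and none at 0, against 0 to 0.085 CPM in the other 9 livers. Its stellate cell markers summed to 835 CPM, against 224 to 499 CPM in the others, with Dcn the most abundant over the 10 livers, none at 0, and Col1a1 at 402 CPM. Without this liver, the log2 fold change of Krt19 with CCl4 in sgBap1 livers was 0.31 and that of Krt7 0.16, and neither was called (edgeR adjusted p = 0.721 and 0.848). Over each liver left out, these adjusted p were 0.179 to 0.721 for Krt19 and 0.173 to 0.848 for Krt7. When it was left out together with NTC-Veh replicate 1, a choice made after the values were seen, 2 members were called with CCl4 in NTC livers and 3 in sgBap1 livers, since Prom1, at 3.40 and 2.07, had edgeR adjusted p of 0.0909 and 0.127.

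Krt23, a type I keratin, was at 1.12 and 0.942 CPM in NTC-Veh livers and at 0.661, 0.751 and 0.312 CPM in NTC-CCl4 livers. It was at 2.05 and 1.01 CPM in sgBap1-Veh livers and at 0.272, 0.377 and 0.361 CPM in sgBap1-CCl4 livers. The CCl4 livers of each genotype were below its vehicle livers with no overlap, and sgBap1-Veh replicate 1 was the highest of all 10. Its log2 fold change with CCl4 was -2.22 ± 0.40 in sgBap1 livers (edgeR adjusted p = 0.000858) and -0.80 ± 0.40 in NTC livers (edgeR adjusted p = 0.113). Without sgBap1-Veh replicate 1 the value in sgBap1 livers was -1.58 (edgeR adjusted p = 0.0299). Over each liver left out it was -2.60 to -1.58 with edgeR adjusted p of 0.000617 to 0.0299, and over the other alternatives the adjusted p was 4.35e-05 to 0.00427. A call in 1 genotype does not show that the genotypes differ: the interaction was -1.42 on the log2 scale, with a 95% interval of -2.68 to -0.17, an unadjusted p of 0.03 in edgeR and an edgeR adjusted p of 0.411. With 1 liver left out the interaction was -1.80 to -0.78, the nearest to 0 without sgBap1-Veh replicate 1 (edgeR adjusted p of 0.268 to 0.758). Counts were low, from 12 to 76 per liver.

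Epcam, a cell adhesion molecule of duct epithelium, varied little between groups. It was at 1.44 and 1.8 CPM in NTC-Veh livers, at 1.29 and 1.46 CPM in sgBap1-Veh livers, at 0.895, 1.65 and 1.2 CPM in NTC-CCl4 livers and at 1.77, 1.04 and 1.28 CPM in sgBap1-CCl4 livers. The 4 groups overlap. The log2 fold change with CCl4 was -0.36 in NTC livers, with a 95% interval of -1.06 to 0.33 (edgeR adjusted p = 0.351). In sgBap1 livers it was 0.00, with an interval of -0.72 to 0.72 (edgeR adjusted p = 0.997). With 1 liver left out these were -0.64 to -0.17 and -0.24 to 0.17, and neither was called (edgeR adjusted p of 0.123 to 0.742 and 0.559 to 0.999). Scaling by library size alone shifted the median of all genes with CCl4 to 0.50 in NTC and 0.52 in sgBap1 livers, and with it Epcam to 0.10 and 0.47, still not called.

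Cftr, the chloride channel of the duct surface, was close to the limit of detection, which was taken as 3 counts per liver or 0.0511 to 0.112 CPM and covers counting error only. It had 1 and 3 counts in NTC-Veh livers, 2 and 8 in sgBap1-Veh livers, 11, 9 and 4 in NTC-CCl4 livers and 17, 8 and 8 in sgBap1-CCl4 livers. The NTC-CCl4 livers were above the NTC-Veh livers, and the sgBap1 groups overlap. Pooled over the livers of a group, the ratio of CCl4 to vehicle was 3.15 in NTC livers, with an exact 95% interval of 1.08 to 12.5 for counting error alone. In sgBap1 livers the ratio was 1.28, with an interval of 0.618 to 2.92. The fitted log2 fold changes were 1.6 and 0.34. With 1 liver left out they were 1.03 to 2.55 in NTC livers and -0.57 to 1.85 in sgBap1 livers, where the sign turned. Between livers, neither was called (edgeR adjusted p = 0.151 and 0.695), nor in any fit with 1 liver left out (edgeR adjusted p of 0.12 to 0.494 and 0.168 to 0.953).

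No member was called between the genotypes. In vehicle livers, 0 of 8 were called between sgBap1 and NTC, beside 0.406% of all genes tested, and in CCl4 livers 0 of 8, beside 0.329%. DESeq2's Wald test also called 0 members in both, and with edgeR 0 had an unadjusted p under 0.05 in either. Among the 17015 genes tested, 2100 had such an unadjusted p with vehicle and 2376 with CCl4. The share of all genes called after adjustment was unstable. With vehicle 69 genes were called, against 0 without NTC-Veh replicate 2, 1 without sgBap1-Veh replicate 1, 1 with the replicate block, 150 without sgBap1-CCl4 replicate 2 and 548 with DESeq2. With CCl4 56 were called, against 1 without NTC-CCl4 replicate 1 and 480 with DESeq2. The smallest edgeR adjusted p among the members was 0.617 with vehicle and 0.391 with CCl4. Sox9 and Cd24a were the most precise, with 95% intervals for sgBap1 against NTC of -0.33 to 0.51 and -0.26 to 0.59 with vehicle, and of -0.38 to 0.17 and -0.26 to 0.35 with CCl4. Prom1 was the least precise of the members with more than 10 counts in every liver, with intervals of -0.94 to 3.13 and -1.81 to 0.92. The medians over the members were 0.39 with vehicle and 0.08 with CCl4, against 0.02 and 0.00 over all genes, and without Cftr 0.17 and 0.05. In the interaction, 0 of 8 members and 0% of all genes were called by edgeR, and DESeq2's Wald test called 0 members and 406 of all genes. Before adjustment, 1 member, Krt23, and 1764 of all genes had a p under 0.05. The CCl4 and genotype comparisons share livers and are not independent of each other.

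**Figure D3:**
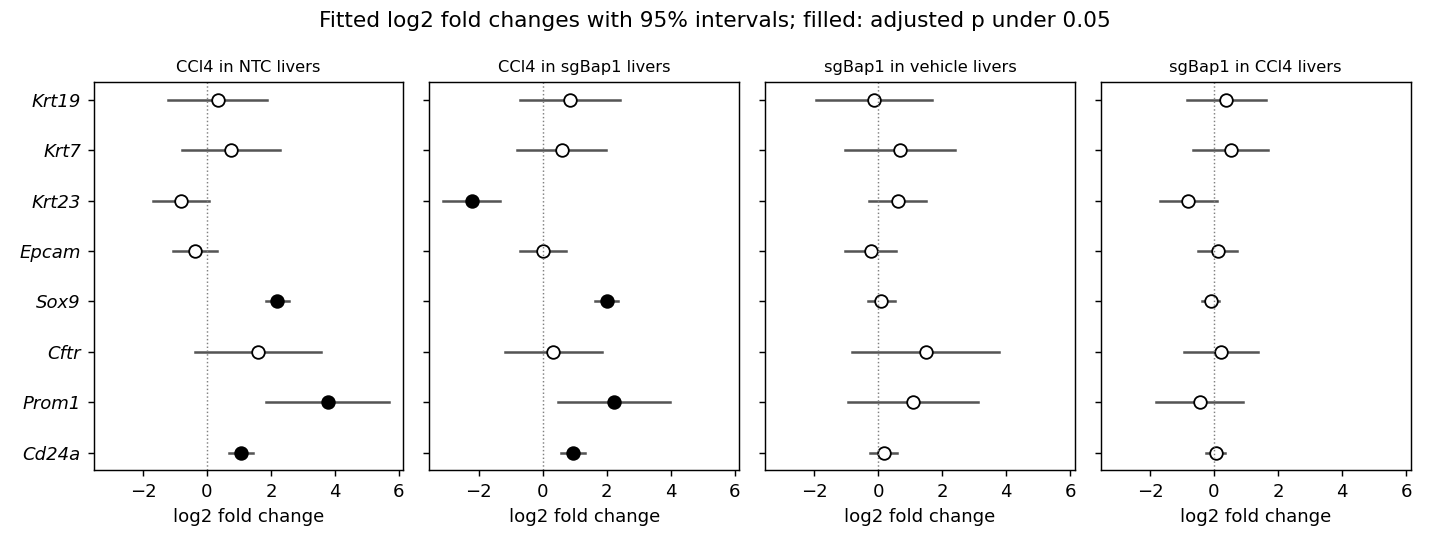
Log2 fold change of each member (horizontal axis) in the 4 pairwise comparisons, with 95% intervals from the edgeR fit; filled points have an adjusted p under 0.05. The filled points are Sox9, Prom1 and Cd24a with CCl4 in both genotypes, from 0.95 to 3.77, and Krt23 in sgBap1 livers at -2.22; the values of Cftr rest on 1 to 17 counts per liver.

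Per kb of exon, the order of the members changed with CCl4. In NTC-Veh livers Cd24a was highest, at 1.04 ± 0.0355 CPM per kb (SD, n = 2), followed by Krt19 at 0.782 ± 0.712, Epcam at 0.738 ± 0.115, Krt23 at 0.658 ± 0.0786 and Sox9 at 0.515 ± 0.0205. Below these were Prom1 at 0.275 ± 0.114, Krt7 at 0.133 ± 0.101 and Cftr at 0.00711 ± 0.00509 CPM per kb. The means of all other members but Cftr lay within the spread of Krt19, which was above Cd24a in NTC-Veh replicate 2. In NTC-CCl4 livers Prom1 was first, at 3.75 ± 1.49 CPM per kb (SD, n = 3), then Sox9 at 2.37 ± 0.247 and Cd24a at 2.17 ± 0.1, which lay within the spread of Sox9, and Krt19 at 1.01 ± 0.51. Prom1 did not exceed Sox9 and Cd24a in every liver, being below Sox9 in NTC-CCl4 replicate 2. In sgBap1-Veh livers Cd24a was first at 1.16 ± 0.0833, followed by Krt23 at 0.978 ± 0.468, which did not differ from it beyond the spread of Krt23, and Krt19 at 0.706 ± 0.0873 CPM per kb. In sgBap1-CCl4 livers the highest were Prom1 at 2.75 ± 1.15, Cd24a at 2.24 ± 0.345 and Sox9 at 2.21 ± 0.144 CPM per kb, which did not differ beyond the spread of Prom1. Krt8 and Krt18, the keratins that hepatocytes and duct cells share, were at 94 ± 5.21 and 113 ± 2.07 CPM per kb in NTC-Veh livers.

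**Figure D4:**
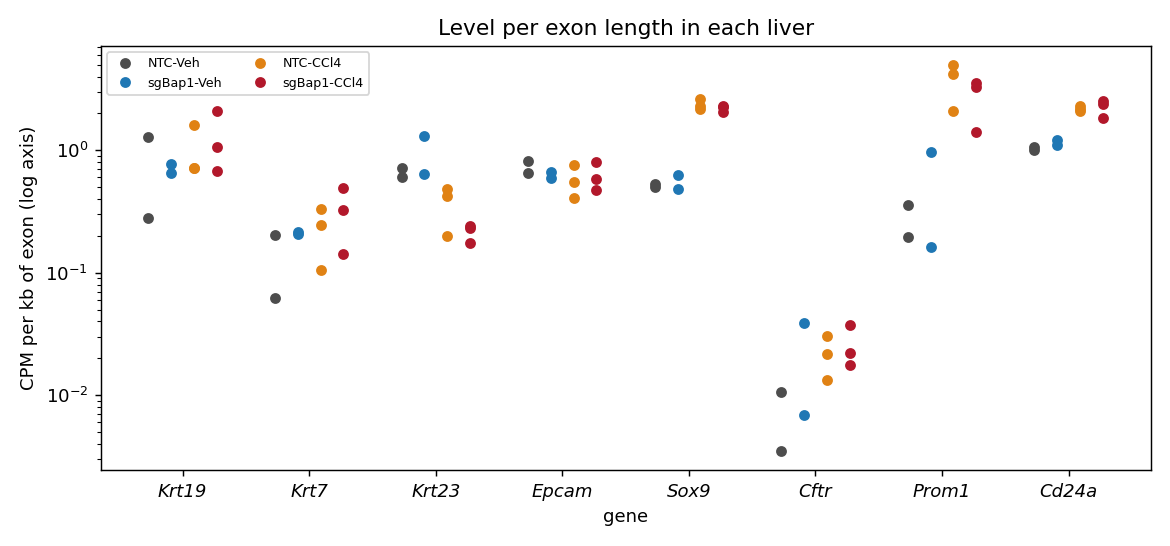
CPM per kb of exon of each member in each liver (log axis), 1 point per liver, coloured by group. Cftr lies lowest in every group, and Prom1, Sox9 and Cd24a are the 3 highest by group mean in both CCl4 groups.

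Genes of related function were described by lists. Of 15 other bile duct epithelium genes, 13 were tested. With CCl4, 8 were called higher and 1 lower in NTC livers, beside 53.9% of all genes tested, 27.4% higher. In sgBap1 livers 7 were called higher and 1 lower, beside 57% of all genes tested, 29% higher. The median log2 fold changes of the list were 1.09 and 1.02. Spp1, the secreted matrix protein osteopontin, was at 38.7 and 43.6 CPM in NTC-Veh livers and at 180, 234 and 181 CPM in NTC-CCl4 livers, with no overlap. Its log2 fold change was 2.27 ± 0.17 in NTC livers (edgeR adjusted p = 4.71e-06) and 2.99 ± 0.18 in sgBap1 livers (edgeR adjusted p = 1.3e-06). Which cells of the unsorted tissue made the Spp1 RNA was not tested. Cldn4, a tight junction protein, had the highest value of the list in NTC livers but rested on 5 and 2 counts in NTC-Veh livers, against 24, 30 and 55 in NTC-CCl4 livers, a pooled ratio of 8.18 with an exact 95% interval of 3.84 to 20.8 for counting error. Its log2 fold change was 3.03, and 2.46 to 3.79 with 1 liver left out. Without NTC-Veh replicate 1 or NTC-Veh replicate 2 it was 3.79 and 2.54, and the call was lost. The call was also lost without NTC-CCl4 replicate 3, at 2.46 (edgeR adjusted p = 0.0571). In sgBap1 livers Cldn4 was called at 3.41. Without sgBap1-Veh replicate 1 or sgBap1-Veh replicate 2 this value was 3.17 and 3.62, and the call was lost. Pigr, the receptor that carries immunoglobulin A into bile and which hepatocytes also make in mice, fell by 1.78 in NTC livers (edgeR adjusted p = 0.000121). Cxcl5 and Muc5b were filtered out. Ehf was called higher in NTC livers (1.07, edgeR adjusted p = 0.00508) and not in sgBap1 livers (0.02), and its interaction was -1.04 (edgeR adjusted p = 0.331). Without NTC-Veh replicate 1 the value of Ehf in NTC livers was 0.89 and the call was lost (edgeR adjusted p = 0.0531, range over livers left out 0.0066 to 0.0531).

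Notch signals direct cells toward the duct fate. Of 11 Notch and biliary fate genes, all tested, 8 were called higher and 2 lower with CCl4 in NTC livers. The share of all genes called was 53.9%, 27.4% higher. In sgBap1 livers 8 were called higher and 1 lower, beside 57% of all genes, 29% higher. The medians of the list were 0.79 and 0.69. The highest in NTC livers was Sox4, a transcription factor of the duct lineage, at 1.58 ± 0.22 (edgeR adjusted p = 0.000195). The ligand Jag1 rose by 1.02 and the Notch target Hes1 by 0.98 on the log2 scale. The lowest was Onecut1, a transcription factor of hepatocytes and ducts, at -1.87 ± 0.54 (edgeR adjusted p = 0.0203). Onecut1 was at 110 CPM in NTC-Veh replicate 1 and at 26.8 CPM in NTC-Veh replicate 2, against 13 to 23.8 CPM in NTC-CCl4 livers. This call rested on NTC-Veh replicate 1: without it the value was -0.52 (edgeR adjusted p = 0.293), and the call was also lost without NTC-CCl4 replicate 2, at -1.66 (edgeR adjusted p = 0.0596), in a range of 0.000783 to 0.293. In sgBap1 livers Onecut1 was not called (-0.68), and its interaction was 1.19 (edgeR adjusted p = 0.679). Notch1 was called higher in sgBap1 livers (0.68) and not in NTC livers (-0.07), with an interaction of 0.75 that edgeR did not call (adjusted p = 0.106) and DESeq2 did. Hey1 was called in NTC livers (1.12) and not in sgBap1 livers (0.17), with an interaction of -0.94 (edgeR adjusted p = 0.506). Without NTC-Veh replicate 1 Hey1 was at 0.77 in NTC livers and was not called (edgeR adjusted p = 0.126, range over livers left out 0.0137 to 0.126).

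Of 8 ductular reaction signals, 6 were tested, and 4 were called higher with CCl4 in NTC livers, beside 27.4% of all genes tested. In sgBap1 livers 5 were called higher, beside 29% of all genes tested. The medians of the list were 1.59 and 2.25. Tnfrsf12a, the receptor for the cytokine TWEAK that drives duct cell growth, was at 4.03 and 3.71 CPM in NTC-Veh livers and at 74.4, 67.3 and 78.9 CPM in NTC-CCl4 livers. No liver overlapped, and the log2 fold change was 4.25 ± 0.11 (edgeR adjusted p = 1.75e-08). Tnfsf12, which encodes TWEAK itself, was the lowest of the list in NTC livers, at 0.16 (edgeR adjusted p = 0.216), and was called higher in sgBap1 livers at 0.45 (edgeR adjusted p = 0.00447), with an interaction of 0.29 (edgeR adjusted p = 0.55). Of 8 duct secretion genes, 6 were tested, with 2 called higher and 1 lower in each genotype. Of all genes tested, 53.9% were called in NTC and 57% in sgBap1 livers. The medians of the duct secretion genes were 0.36 and 0.29. Slc10a2, the bile salt uptake carrier, was the highest in NTC livers at 2.11 ± 0.41 (edgeR adjusted p = 0.00271) and was not called in sgBap1 livers (0.27). Slc10a2 had a log2 fold change of 1.66 to 2.79 in NTC livers with 1 liver left out. It was at 13 and 5.93 CPM in NTC-Veh livers and already at 41.7 and 54.6 CPM in sgBap1-Veh livers, a genotype difference of 2.34 that edgeR did not call (adjusted p = 0.0737) and DESeq2 did. The interaction of Slc10a2 was -1.85 (edgeR adjusted p = 0.258), also called by DESeq2 only. Slc4a2, a chloride and bicarbonate exchanger, was called in sgBap1 livers (0.32, not without sgBap1-Veh replicate 2, at 0.26 with edgeR adjusted p = 0.095 in a range of 0.00998 to 0.095) and not in NTC livers (0.10), with an interaction of 0.22 (edgeR adjusted p = 0.599). Adcy6, an adenylate cyclase, was the lowest at -0.69 (edgeR adjusted p = 0.00219). Its call in sgBap1 livers was lost without sgBap1-Veh replicate 2, at -0.40 (edgeR adjusted p = 0.0947, range 0.00516 to 0.0947). Sctr, the secretin receptor of duct cells, had 0 to 8 counts per liver and was filtered out.

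Krt8 and Krt18, the partner keratins of hepatocytes and duct cells, were both called higher with CCl4. Krt8 was at 177 and 191 CPM in NTC-Veh livers and at 795, 855 and 912 CPM in NTC-CCl4 livers. The log2 fold changes in NTC livers were 2.21 ± 0.14 for Krt8 (edgeR adjusted p = 1.87e-06) and 2.17 ± 0.14 for Krt18 (edgeR adjusted p = 2.1e-06). Krt20 had 0 counts in the vehicle livers, 0 to 11 in CCl4 livers, and was filtered out. For genotype and the interaction edgeR called 0 genes in these 5 lists. DESeq2 called Slc10a2, Notch1 and Tnfsf12 with vehicle, Spp1 and Ccn2 with CCl4, and Slc10a2, Notch1 and Ccn2 for the interaction. At an unadjusted edgeR p under 0.05, the most genes in a list with vehicle were 4 of 11, in the Notch and biliary fate genes. The most were 5 of 13 with CCl4 and 3 of 13 for the interaction, both in the other bile duct epithelium genes. The keratin partners held 0 in each. Among the 17015 genes tested, 2100 had such a p with vehicle, 2376 with CCl4 and 1764 for the interaction.

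**Figure D5:**
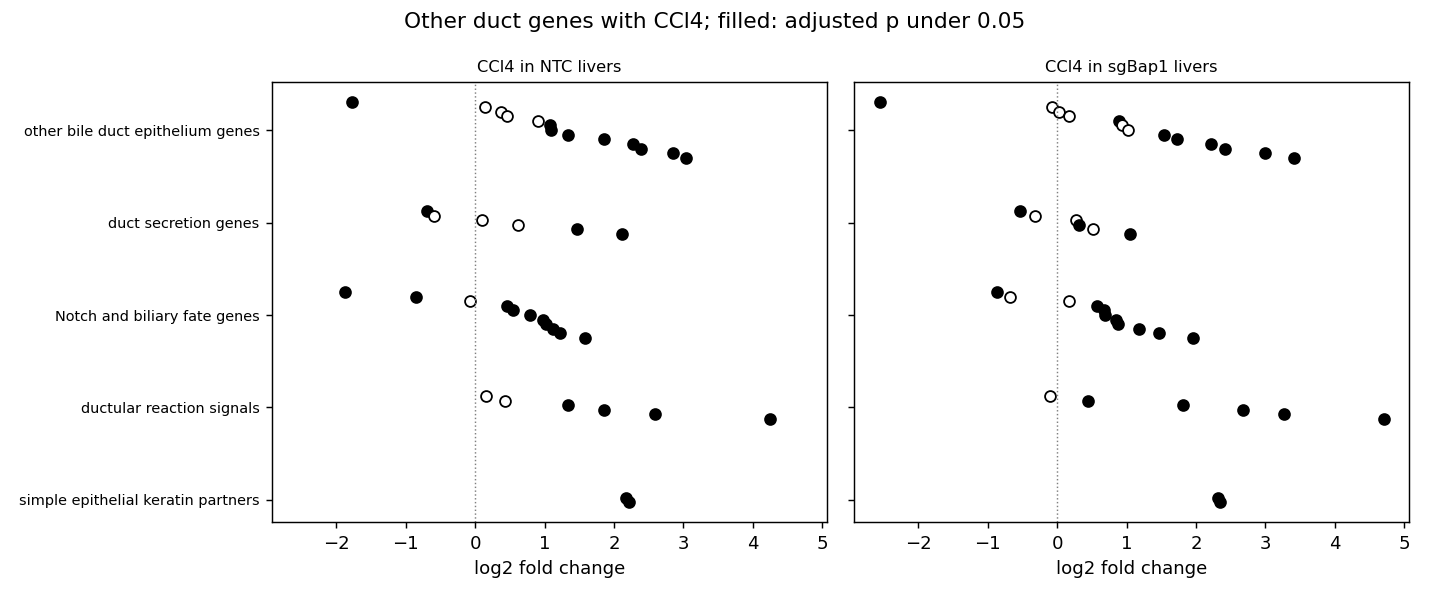
Log2 fold change with CCl4 (horizontal axis) of each tested gene of 5 related lists, in NTC livers (left) and sgBap1 livers (right); filled points have an edgeR adjusted p under 0.05. Most filled points lie to the right of 0, up to 4.25 and 4.70 for Tnfrsf12a, and Pigr is the lowest of the duct epithelium genes in both panels.

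Some markers of other cell types were also called with CCl4, beside 53.9% of all genes tested in NTC and 57% in sgBap1 livers. Of 7 hepatocyte markers, 6 were called lower in NTC livers and 3 in sgBap1 livers, led by Cyp2e1 at -5.71 ± 0.34 (edgeR adjusted p = 1.87e-06), while Hnf4a was the highest at -0.25 and was not called. In sgBap1 livers 5 had an unadjusted edgeR p under 0.05 and DESeq2 called 6, as in NTC livers. For the interaction both tools called 0 and 0 had an unadjusted edgeR p under 0.05. Among the 17015 genes tested, 10496 had such a p with CCl4 in sgBap1 livers and 1764 for the interaction. Of 6 stellate cell markers, 4 were called higher in NTC and 3 in sgBap1 livers. In NTC livers Col1a1 was highest at 4.36 and Reln lowest at 0.19. With 1 liver left out the log2 fold change of Col1a1 in NTC livers was 3.9 to 5.04. Both proliferation markers were called higher in both genotypes, and Mki67 was at 2.78 to 5.14 CPM in vehicle and at 73.9 to 152 CPM in CCl4 livers. Of 5 pancreatic acinar markers, 1, Cela2a, was tested and called lower in both, from 9 to 22 counts in vehicle to 0 to 9 counts in CCl4 livers. Pnlip had 0 counts in all groups, and Cpa1, Ctrb1 and Prss2 each had at most 4 counts in any group. The list therefore rests on Cela2a alone, and the other markers do not show acinar RNA in these livers. The log2 fold change of Cela2a in sgBap1 livers was -3.01. Without sgBap1-Veh replicate 2 it was -2.43, and the call was lost. The part of these cells in the duct gene values was not tested.

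For each member, the 3 genes with the most similar profile over the 10 livers were found by the root mean square difference of log2 CPM, each gene centred on its own mean. For Sox9 they were Ctps, St3gal2 and Samd5, at differences of 0.16, 0.17 and 0.17, and for Cd24a Tcirg1, Kpnb1 and Lims1, at 0.09, 0.1 and 0.1. For Prom1 they were Dhrs9, Gm14548 and H2-T-ps, at 0.45, 0.47 and 0.5. The differences were not scaled by each member's own SD of log2 CPM. This SD was 1.75 for Prom1, 1.03 for Sox9, 0.79 for Krt7, 0.5 for Cd24a and 0.3 for Epcam. The gene closest to Krt7 was Krt19, at 0.38, followed by Col6a1 and Adgrd1 at 0.38 and 0.4. For Krt19 they were Cdon, Il18r1 and Prr15, at 0.29, 0.29 and 0.32. For Krt23 they were mt-Nd6, Adra1b and Cyp2b10, at 0.26, 0.31 and 0.32, and for Epcam Atf5, Tnrc6c and Drc3, at 0.17, 0.2 and 0.2. For Cftr they were Gm8624, Tbc1d31 and Magef1, at 0.31, 0.41 and 0.42, and its own profile rests on few counts.

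In the GRCm38 annotation Krt23, Krt19 and Sox9 lie on chromosome 11, at 99477974 to 99493137 and 100140810 to 100148665 on the - strand and at 112782224 to 112787760 on the + strand. Prom1 lies on chromosome 5, from 43993620 to 44102032 on the - strand, and Cd24a on chromosome 10, from 43578284 to 43584265 on the + strand. Cftr lies on chromosome 6, from 18170687 to 18322768, Krt7 on chromosome 15, from 101411043 to 101430313, and Epcam on chromosome 17, from 87635979 to 87651129, all on the + strand. Krt7, Cftr and Prom1 overlap other annotated genes. Gm671 lies opposite Krt7 and had at most 2 counts per liver, and Gm15592 and Gm15595 overlap Cftr and had 0. Prom1 overlaps Gm42716 on the same strand, with at most 2 counts, and Gm16401 on the opposite strand, with at most 17. Of the 50-base stretches of a member's transcripts, 2.75% of those of Cd24a are shared with Gm6212, which had at most 1 count, and 0.296% of those of Krt7 with other genes, more with Gm44190 than with any other, which had at most 4. For Prom1 it was 0.344%, with Ccdc77 the gene that shares most, which was expressed, at 107 to 471 counts, and for the other 5 members 0%.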

How the data were processed

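RNA was measured in 10 livers. The authors made stranded mRNA libraries, read 50 bases from each end, aligned the reads with STAR 2.7.6a and estimated counts per gene with Salmon 1.4.0; whether counting used strand is not given in the sources used here. The deposited values are estimated counts without normalization; 9.22% were not whole (tolerance 1e-09), and all were rounded. Groups and replicate numbers come from the labels.

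Counts were analysed in R 4.3.3 with edgeR 4.0.16: filterByExpr with the 4 groups, TMM, estimateDisp and glmQLFit (robust = TRUE, legacy = FALSE) with a mean for each group. This edgeR version otherwise uses the edgeR 3 method, an alternative here; legacy = FALSE was set after results of the edgeR 3 method had been seen. Tests were two-sided quasi-likelihood tests, with Benjamini-Hochberg adjustment over 17015 genes in each comparison and a threshold of 0.05. The SE is the log2 fold change divided by the square root of F. Profiles were compared on log2 CPM (prior count 2) among genes whose mean count reached 20. The code was tested on simulated data. Exon lengths, positions and overlaps come from GENCODE vM21; the authors used vM25 on the same build, so lengths may differ. Alternatives were DESeq2 size factors, library size alone, 2 other filters, the replicate block, DESeq2 1.42.0, the edgeR 3 method, only the 2 groups compared, and each liver left out.

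The members and lists were chosen with earlier results of these data known. All members are reported; from each of the 5 lists of related function, the genes with the highest and lowest change with CCl4 in NTC livers and those whose call differs are named, and from the lists of other cell types only some genes. Others, such as Spp1, Jag1, Hes1 and the most abundant markers, were named after their values were seen. A few genes and a motif of the planned lists are not reported, and the counts and medians leave them out.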

Additional observations from a re-analysis of the deposited data

How the results depend on the processing

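The counts of members called with CCl4 were 3 in NTC and 4 in sgBap1 livers. Over the alternatives that left out no liver they were 3, and 3 or 4. With each liver left out in turn they were 3 in NTC and 3 to 4 in sgBap1 livers, where a lone vehicle liver was assumed to vary like the other groups. For sgBap1 against NTC and for the interaction, the count was 0 in every alternative run. Some alternatives that left out no liver did not test every member in each comparison. The only member whose call changed was Prom1 with CCl4 in sgBap1 livers. Its edgeR adjusted p was 0.0884 without the filter, 0.0562 with only the 2 groups and 0.0537 with the replicate block. The log2 fold changes in these fits were 2.25, 2.24 and 2.43, against 2.23 in the main fit. With 2 livers left out together, an alternative added after the data were seen, the call of Prom1 was also lost in NTC livers. The cause was not tested, other than that more genes are tested without the filter and fewer livers or degrees of freedom enter the other fits. Of the members' fold changes, 5 changed sign with no liver left out and 26 with 1 left out; none of these was called in either fit. The values of other named genes with each liver left out were also added after the data were seen.

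The replicate numbers showed no sign of pairing the livers. The 13 same-numbered pairs had correlations of -0.15 to 0.1 in their deviations from the group means, and 3 of 10 livers correlated best with their own number. In a vehicle group of 2 livers the deviations mirror each other, so these correlations are not independent and cannot exclude pairing. With the replicate block, 3 members were called with CCl4 in NTC and 3 in sgBap1 livers.

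For the related lists, DESeq2's Wald test called 5 duct secretion genes with CCl4 in NTC livers, 1 of them, Gpbar1, left out by edgeR's filter, against 3 with edgeR. It called 1 gene where edgeR called 0 in 8 further counts, all for sgBap1 against NTC or the interaction. Scaling by library size alone called more genes higher with CCl4, 80.5% of the calls in NTC livers against 50.8% with TMM. Cftr had the fewest counts of the members, 1 to 17 per liver.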
